A study of Mus musculus with 4 samples.

Results

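The genes of the cytosolic ribosome were taken from m6A-seq of mouse c-Kit+ foetal liver cells, and the m6A peaks in their exons were counted and described. Members were all protein-coding genes of the GENCODE M21 annotation whose symbol starts with Rpl or Rps and a digit, together with Rplp0, Rplp1, Rplp2 and Rpsa, but without symbols starting with Rps6k or Rps19bp. There were 91 such genes among 21938 protein-coding genes. Of these, 46 encode proteins of the large subunit, 31 encode proteins of the small subunit, and 14 have the symbol of a paralogue or a pseudogene-like copy. By this rule the large subunit group holds the 3 stalk proteins as well.

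In m6A-seq, RNA is broken into fragments, an antibody against N6-methyladenosine pulls down those that carry the mark, and captured and unselected fragments are sequenced. The cells came from C57BL/6 mice and were selected with magnetic beads for Kit, a receptor of blood stem and progenitor cells. According to the study's methods they were control cells, which carry floxed alleles of the m6A reader Ythdf2 that produce a GFP fusion of the protein, and neither the labels nor the methods give an age or a treatment for them. There were 2 m6A immunoprecipitation (IP) samples, described in the methods as biological replicates and labelled total RNA, and 2 input samples, labelled polyA RNA. A peak list was analysed for each IP sample, with 15635 peaks in replicate 1 and 14872 in replicate 2. No file of the input samples was analysed, and which library gave the background of the peaks is not given in the sources used here. Because all samples belong to 1 condition, no comparison between conditions was possible and no test was made. The lists hold peaks and no expression values, so the labelled cell type could not be checked by expression. In both replicates 5 of 9 stem and progenitor markers (Cd34, Gata2, Runx1, Hlf and Meis1) had a peak, as did the hepatocyte markers Apoa1 and Hnf4a among 5 tested and the erythroid markers Klf1 and Epor among 5. Kit itself had none. Over all protein-coding genes the share with a peak in both replicates was 30.9%, and these counts are no test of cell type.

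Ribosomal proteins assemble with the ribosomal RNAs into the small subunit, which reads the mRNA, and the large subunit, which joins the amino acids. Their mRNAs are short, abundant and stable, and most begin with a run of pyrimidines, the terminal oligopyrimidine (TOP) tract, through which mTOR signalling controls their translation. m6A is deposited mainly in long exons and around stop codons, and YTHDF2 is the reader that directs marked mRNAs to decay. Red cell progenitors are particularly sensitive to ribosome dosage, and loss of 1 copy of one of several of these genes causes Diamond-Blackfan anaemia, a failure of red cell production.

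Most ribosomal protein genes had no m6A peak. A peak summit, the point of highest enrichment within a peak, lay in an exon of 10 of the 91 genes in both replicates, or 11% (exact Clopper-Pearson 95% interval 5.40 to 19.3%, counting error only), whereas 30.9% of all protein-coding genes had one. In at least 1 replicate, 12 of the 91 genes (13.2%, interval 7.0 to 21.9%) had a peak, beside 37.1% of all protein-coding genes, and 79 genes had none. The 10 genes were Rpl13, Rpl27, Rpl28, Rpl30, Rpl34, Rps7, Rps15, Rps24 and the paralogues Rpl36al and Rpl7l1. Rpl5 had a peak in replicate 1 alone and Rps10 in replicate 2 alone. In both replicates 5 of 46 large subunit genes (10.9%) and 3 of 31 small subunit genes (9.68%) had a peak. None of the stalk genes had a peak.

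The sequences nearest to the summits are shown first, because the consensus GGAC is the core of the sequence in which the methyltransferase marks adenosine. For 6 genes a GGAC lay within 50 nt of a summit on the spliced transcript, and its letters are in capitals with 10 bases on either side, read from the GRCm38 genome on the gene's strand.
Rpl34 (5′ UTR, chr3:130730230-130730253, minus strand): caggcgggcgGGACgcccttgggg
Rpl27 (5′ UTR, chr11:101442569-101442592, plus strand): ccctcgagcaGGACctccgggccg
Rps24 (coding sequence, chr14:24491759-24491782, plus strand): gtaaccatccGGACcaggaagttc
Rps7 (coding sequence, chr12:28635594-28635617, minus strand): gcgagaagccGGACgagttcgagt
Rpl13 (coding sequence, chr8:123102714-123102737, plus strand): agcagcgagtGGACacttggttca
Rpl7l1 (3′ UTR, nearest in replicate 1, chr17:46774232-46774255, minus strand): aggtctattaGGACcttgactaca
Rpl7l1 (3′ UTR, nearest in replicate 2, chr17:46774141-46774164, minus strand): ttagaaagaaGGACtgctggcaag
In Rpl34 and Rps7 the base after GGAC is G, which the wider consensus DRACH (A, G or T, then A or G, then AC, then A, C or T) does not allow, and the nearest DRACH was 20 nt and 14 nt from the summits in Rpl34 and 77 nt and 57 nt in Rps7. In Rpl34 the adenosine of the GGAC shown was 3 nt from the summit in each replicate, on opposite sides. In Rps7 it lay 29 nt and 9 nt downstream of the summits of replicates 1 and 2, in Rpl13 34 nt and 24 nt downstream, and in Rpl27 23 nt and 21 nt upstream. The Rps24 motif is in the exon after that of the summit, 33 nt downstream in replicate 1 and 55 nt in replicate 2, beyond the window. The summit of the Rpl7l1 peak found in both replicates lay between both motifs shown, and a second peak of replicate 1 had another GGAC 25 nt upstream of its summit, not shown.

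Rpl28, Rps15, Rpl30 and Rpl36al had a peak in both replicates with no GGAC within 50 nt. In Rpl30 and Rpl36al a DRACH lay within that window, 15 nt and 7 nt from the summits and 29 nt and 36 nt. Rpl28 and Rps15 also had no match within 50 nt to DRACH, the nearest being 183 nt away in Rpl28 and 88 to 90 nt away in Rps15. By annotated transcripts of longest coding sequence, 8 of the 91 members (8.79%) start with C and a run of pyrimidines. Over all protein-coding genes the share was 2.26%, and most members' annotated starts are therefore not TOP starts. The bases around the summits of Rpl28 and Rps15 are shown with the summit base of replicate 1 in capitals. The annotated first bases of the Rps24 transcript are an example of a TOP tract, with the summit base of replicate 2 in capitals.
Rpl28 (5′ UTR, chr7:4793087-4793111, plus strand): caagcaccattcGctgccctcattc
Rps15 (5′ UTR, chr10:80292653-80292677, plus strand): gggctgtgtgtcCcctcgcccgtcc
Rps24 (5′ UTR, chr14:24490718-24490737, plus strand): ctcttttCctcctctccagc

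Among the large subunit genes, Rpl30 had the highest enrichment of the group in replicate 2. Fold enrichment is the ratio of IP signal to local background at the summit as MACS2 gives it, after the background of replicate 1 was scaled by 0.874 and the IP of replicate 2 by 0.952 and 1 was added to each, while reads are given here unscaled. It was 3.88 in replicate 1 (49 IP reads over 13.6 background reads) and 5.08 in replicate 2 (62 over 10.8). Both summits lay in a 5′ UTR exon of 456 nt that 1 of 3 transcripts of the gene contains, and also in an exon of D730044K07Rik, a transcript annotated on the other strand. The peak lists carry no strand, so these genes cannot be told apart. For Rpl34 the fold enrichment was 4.69 (57 IP reads over 13) and 3.95 (57 over 13), in a first exon of 217 nt. Rpl27 had 3.42 (104 over 34) and 4.20 (105 over 23), in a first exon of 360 nt. Rpl28 had 2.78 (108 over 43.8) and 2.52 (101 over 37.6), in a first exon of 420 nt. All 4 genes had their peak in the 5′ UTR of a first exon, and in Rpl27, Rpl28 and Rpl34 the same position is intronic in the other annotated transcripts that span it.

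Rpl13 and Rpl5 had their peaks in the second exon, within the coding sequence. Fold enrichment was low in Rpl13, at 1.65 (96 IP reads over 66) and 1.49 (99 over 63), with the summits 33 nt and 43 nt past the start codon. The Rpl5 peak of replicate 1 had a fold enrichment of 2.24 (101 over 51) and its summit 28 nt past the start codon. RPL5, with RPL11 and the 5S ribosomal RNA, forms the particle that binds MDM2 when ribosome assembly fails. No peak was called in an exon of Rpl5 in replicate 2, and the lists give no value there.

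Among the small subunit genes, Rps24, whose product is needed to process the precursor of 18S ribosomal RNA, had a fold enrichment of 4.20 (41 IP reads over 10.3) and 3.79 (37 over 8.56). Its summits lay in a first exon of 41 nt, 9 nt and 31 nt before the start codon. Rps15 had 3.65 (60 over 18) and 3.64 (61 over 15.2), in a 5′ UTR exon of 216 nt that 1 of 2 transcripts contains and the other has as intron. For Rps7 the values were 2.88 (80 over 31) and 2.53 (76 over 28), with the summits 20 nt and 40 nt past the start codon in exon 2. Rps10 had a fold enrichment of 1.52 (112 over 70.0) in replicate 2, 92 nt past the start codon in exon 2, at a position that the readthrough gene RPS10-NUDT3 shares. In replicate 1 a peak at the 5′ end of Rps10 had its summit 27 nt outside the nearest exon, with a fold enrichment of 1.67 (141 over 96), so the gene had a peak in both lists but a summit in an exon in 1.

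Both paralogues with a peak differed in position from the subunit genes. Rpl7l1, a paralogue of Rpl7, had 3.10 (97 IP reads over 35) and 3.28 (99 over 28) in a last exon of 1830 nt, with the summits 1544 nt and 1555 nt past the stop codon. A second peak in the same exon, 208 nt past the stop codon, was called in replicate 1 alone with a fold enrichment of 1.46 (127 over 99). Rpl36al, an intronless paralogue of Rpl36a, had 1.65 (192 over 133) and 1.38 (189 over 130.0) in its coding sequence, where an exon of Gm49383 overlaps it. It had the most reads and, of the genes with a peak in both replicates, the lowest enrichment in replicate 2. Of the other 12 genes with paralogue or pseudogene-like symbols, such as Rpl3l, Rpl10l, Rpl22l1, Rpl39l and Rps27l, none had a peak.

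Where both replicates called a peak with its summit in an exon, their values were similar. Such pairs were chosen by their overlap, which itself favours near summits. Peaks called in 1 replicate alone, such as that of Rpl5, have no value in the other and are left out. For these 10 pairs of overlapping peaks the larger fold enrichment was at most 1.31 times the smaller (Rpl30). Of the pairs, 7 were higher in replicate 1 and 3 in replicate 2. Summits of a pair were a median of 7.5 nt and at most 22 nt apart. In the plot of fold enrichment and reads for the 12 genes, Rpl30, Rpl34, Rps24, Rpl27, Rps15 and Rpl7l1 lie above 3-fold in both replicates, and Rpl13 and Rpl36al below 2-fold in both.

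**Figure D1:**
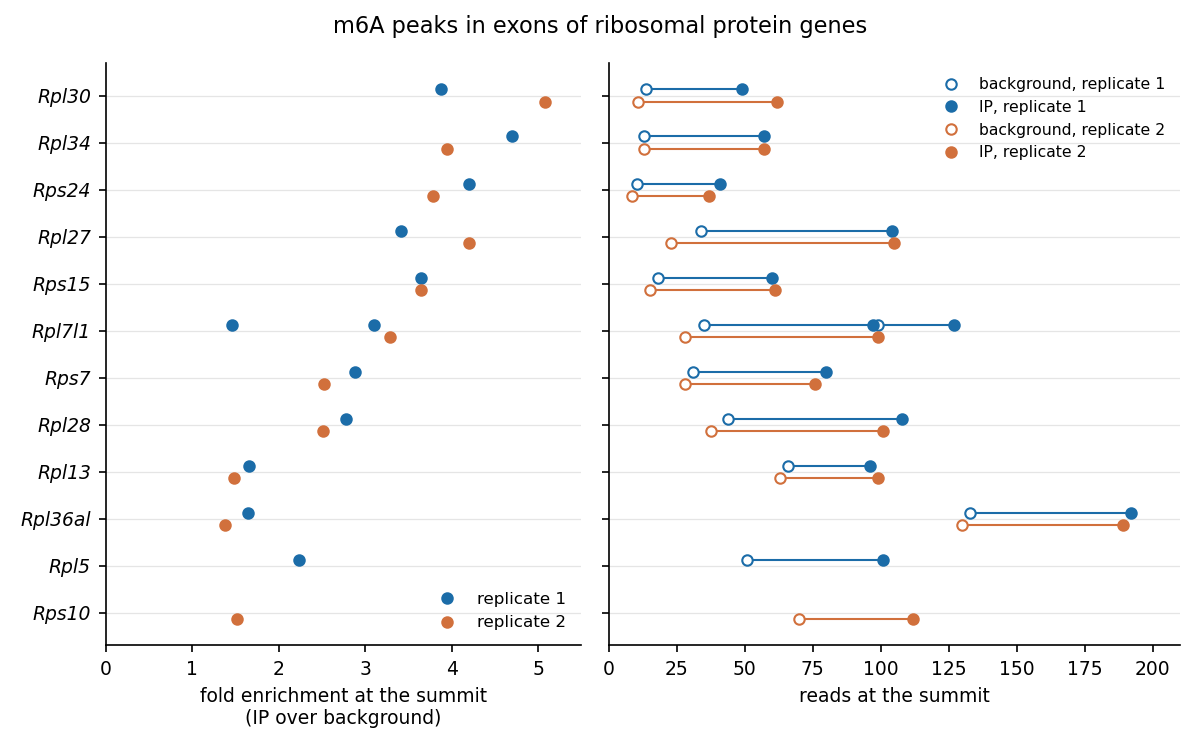
Fold enrichment at the summit (left) and reads at the summit (right) of every peak in an exon of a ribosomal protein gene, by replicate. Open circles are the local background level in reads, which is not a count of control reads, and filled circles IP reads. Rpl30 and Rpl34 have the highest mean enrichment of both replicates, 4.48 and 4.32, and Rpl36al the most reads, 192 and 189 in the IP.

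Peaks of ribosomal protein genes were concentrated at the 5′ ends. A peak is a call of enrichment by the antibody, and whether the signal near transcript starts is m6A within the transcript was not tested. Of 12 summits in replicate 1 and 11 in replicate 2, 10 and 10 lay in the first or second exon of their transcript (the single exon of Rpl36al included), and 8 and 9 were within 500 bp, on the genome, of an annotated transcript start of the gene. For all peaks in exons of protein-coding genes the first or second exon held 29.9% and 30.7% of summits, and 14.7% and 15.3% were within 500 bp of a start. The members' genes are compact, and 24.3% of the bases of their transcripts lay within 500 bp of a start, beside 10.4% over all protein-coding genes. By region, 6 summits of each replicate were in a 5′ UTR, 4 and 4 in coding sequence, and 2 and 1 in a 3′ UTR, all of the last in Rpl7l1. Of the summits in all protein-coding exons 12.3% and 12.6% were in a 5′ UTR, 53.2% and 52.8% in coding sequence and 34.5% in a 3′ UTR in each replicate.

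Near the stop codon, where peaks of other mRNAs gather, members had almost none. A single summit in replicate 1 (Rpl36al, 194 nt before the stop codon) and none in replicate 2 lay within 200 nt of a stop codon, beside 29.9% and 29% of the summits in all protein-coding exons. This window covered 31% of the bases of the members' transcripts and 12.1% of those of all protein-coding genes. In the map of summits along the transcripts, the summits of the subunit genes stand at the left end of each transcript, and the long 3′ UTRs of Rps24 (1176 nt) and Rpl5 (1012 nt) carry none.

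**Figure D2:**
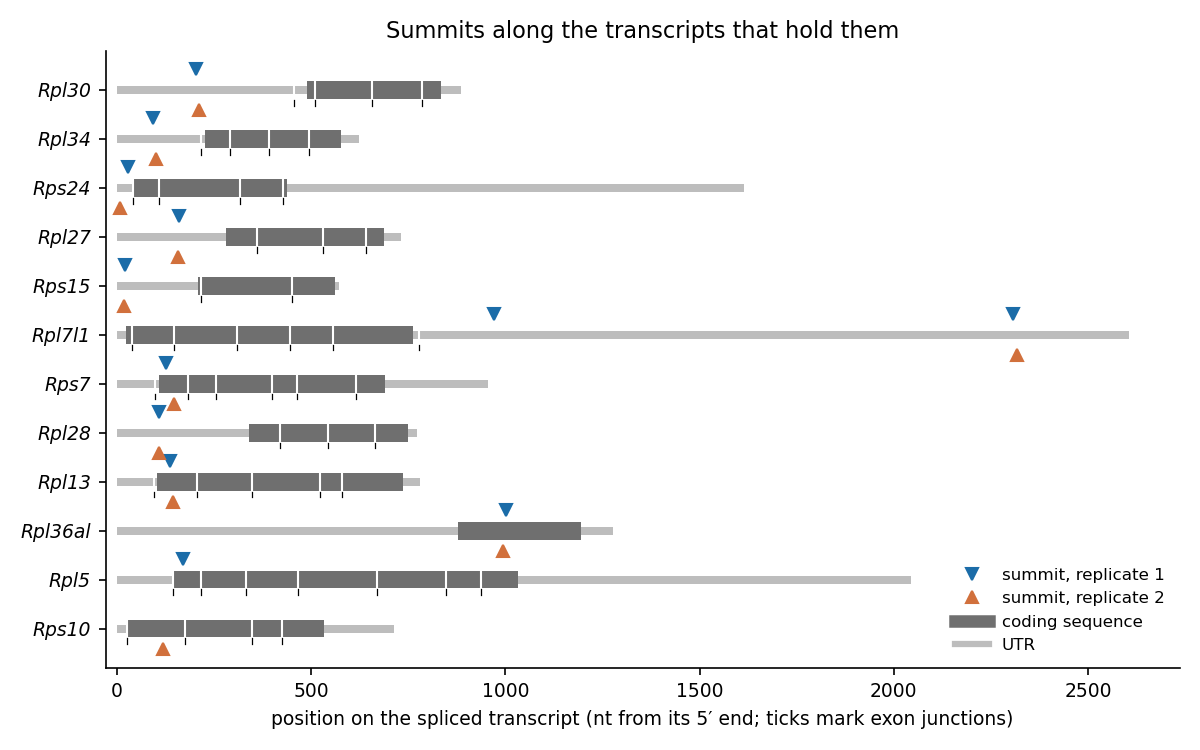
Peak summits on the transcript that holds them, in nt from its 5′ end; thick bars are coding sequence, thin bars UTRs, ticks exon junctions, and triangles the summits of each replicate. The summits of Rpl30, Rpl34, Rps24, Rpl27, Rps15, Rps7, Rpl28, Rpl13, Rpl5 and Rps10 lie in the first or second exon, while those of Rpl7l1 lie in the 3′ UTR and those of the single-exon Rpl36al in its coding sequence.

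A few further peaks over these genes had their summit in no exon of the basic transcript set, and they too were near the starts. There were 5 in replicate 1 and 3 in replicate 2, in Rpl8, Rpl23a, Rpl36a, Rps10 and Rps18, and each lay within 500 bp of an annotated start. Rpl23a had a fold enrichment of 4.07 (65 IP reads over 17.4) in replicate 1 and no peak in replicate 2. Rps18, whose protein lies at the head of the small subunit, had 3.64 (80 over 24.4) and 3.34 (76 over 21), 282 bp and 299 bp upstream of the nearest start. Rpl36a had 1.93 (104 over 61) and 2.54 (103 over 38), and Rpl8 1.54 (124 over 92) and 1.56 (135 over 82), all of them from 321 bp to 382 bp downstream of the nearest start. With these peaks counted, 16 of the 91 genes had a peak over the gene and 75 had none. The same count was not made over all protein-coding genes, whose shares of 30.9% and 37.1% rest on summits in exons alone. Of the members, 30 have 58 snoRNA genes within them on the same strand, and 3 of these hosts (10%) had a peak in an exon in at least 1 replicate, beside 13.2% of all members. No snoRNA or other small RNA lay under the peaks with a summit outside the exons.

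The motif around the summits did not set these peaks apart in the same way for GGAC and for DRACH. In replicate 1, 7 of 12 summits (58.3%) had GGAC within 50 nt and in replicate 2, 5 of 11 (45.5%), beside 56.4% and 56.1% of the summits in all protein-coding exons. Of the bases of the members' transcripts 29.8% were within 50 nt of GGAC, and of those of all protein-coding genes 32.7%. DRACH was within 50 nt of 8 of 12 (66.7%) and 8 of 11 (72.7%), beside 93.5% of the summits in all protein-coding exons in each replicate. DRACH is common, and 84.2% of the bases of the members' transcripts and 87% of those of all protein-coding genes had it that near. Besides Rpl28 and Rps15, the summits without DRACH in the window were those of Rpl5 and Rps7. The members' transcripts held a median of 3.61 GGAC per kb and those of all protein-coding genes 4.0, and Rpl19 and Rplp1 were the only members with none.

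Peaks in ribosomal protein exons were weaker than most, over a higher background. Their median fold enrichment was 2.99 in replicate 1 and 3.28 in replicate 2, beside 4.11 and 4.29 for all peaks in protein-coding exons, and 10 of 12 and 10 of 11 were below those medians. The median background was 34.5 and 28 reads, beside 18 and 14, and the median number of IP reads 96.5 and 99, beside 71 and 68. Background of the 5′ UTR peaks ranged from 8.56 reads (Rps24, replicate 2) to 43.8 (Rpl28, replicate 1), and background of the coding peaks from 28 (Rps7, replicate 2) to 133 (Rpl36al, replicate 1). Across all peaks fold enrichment was lower where background was higher, and the members' peaks lie within that cloud. Peaks in exons of mitochondrial ribosomal protein genes had a still lower median fold enrichment, 2.46 and 2.38. Their median background was higher, 63 and 52 reads. No peak in either list had a background above 199 reads or more than 317 IP reads, and reads at positions without a peak were not analysed, so how many reads the other 79 genes had is not known here. Whether duplicate reads were removed or limited is not given in the sources used here, and a gene counted here as having no peak is one without a call by the authors' settings.

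**Figure D3:**
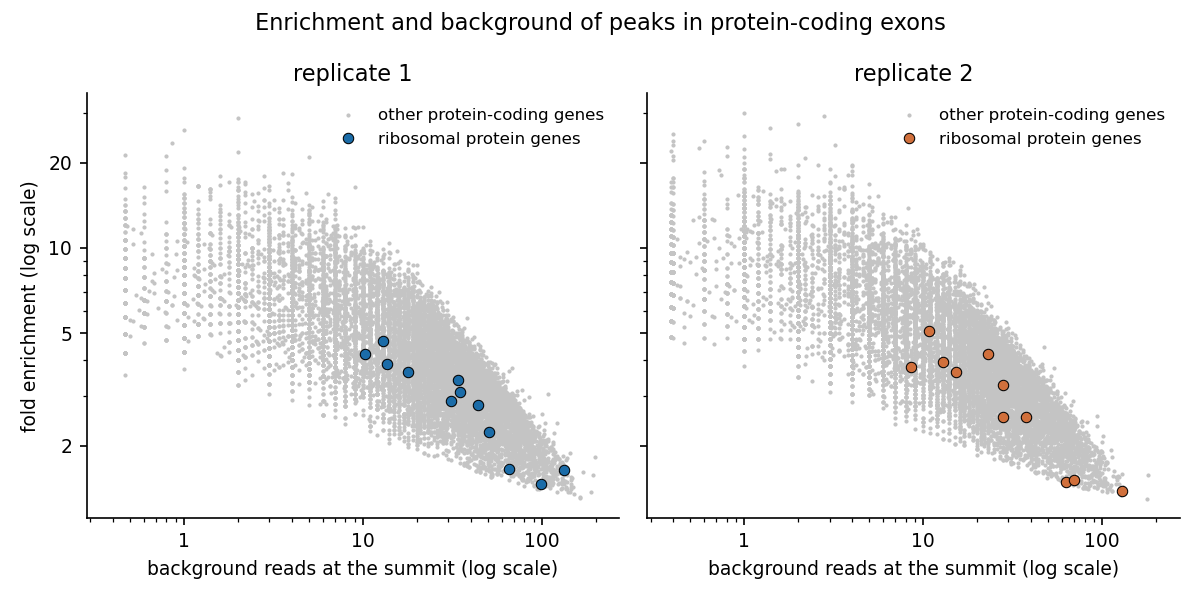
Fold enrichment against the local background level at the summit, in reads, for every peak in an exon of a protein-coding gene (grey) and of a ribosomal protein gene (coloured). Both scales are log scales, and each replicate is shown apart. The ribosomal protein peaks have a median background of 34.5 and 28 reads, and 8 of 12 and 8 of 11 of them have a background above the median of all peaks shown.

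The number of ribosomal protein genes with a peak was near what the shares of all annotated genes of like length would give. Taking for each gene the transcript of longest coding sequence, length was a median of 835 nt in the members and 2544 nt in all protein-coding genes, with a 3′ UTR of 92 nt and 733 nt and a longest exon of 334 nt and 1188 nt. Of protein-coding genes with a transcript from 500 to under 1000 nt, 8.83% had a peak in both replicates, and of the 46 members of that length 6 did (13%, interval 4.94 to 26.3%). From 1000 to under 2000 nt the shares were 20.4% and 12% (3 of 25 members, interval 2.55 to 31.2%). None of the 14 members under 500 nt had a peak, beside 5.14% of genes of that length. From 2000 to under 4000 nt the shares were 35.6% of all genes and 1 of 5 members, and from 4000 nt they were 46% and 0 of 1. Had each length class of the members had the share of all protein-coding genes in that class, 12.1 members would have had a peak, and 10 did. By classes of the longest exon the same sum gave 14.7. All protein-coding genes include those that these cells do not express, which the lists cannot separate. These shares therefore do not show how members stand beside expressed genes of their length.

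By the transcripts chosen here, the 3 longest members had no peak. Rps15a, with an annotated transcript of 5179 nt, Rps20 (3706 nt) and Rpl18 (2989 nt) had none in either replicate, although they hold 9, 11 and 12 GGAC. In Rps15a and Rps20 most of that length is an annotated 3′ UTR, of 4731 nt and 3170 nt. Rps15a and Rpl18 also have annotated transcripts of the same coding length of 640 nt and 679 nt, and by the shortest such transcripts the longest members are Rps20 and Rpl5 (2045 nt), which had a peak in replicate 1. Which transcripts these cells used was not analysed here.

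The genes of the mitochondrial ribosome encode the same kind of machine for the mitochondrion and most of them had a peak. Of 78 Mrpl and Mrps genes, 46 had a peak in both replicates (59%, interval 47.3 to 70.0%), in place of the 17.6 that the shares of all genes in their length classes would give. Their transcripts were a median of 1302 nt long. Of their summits, 67.2% in replicate 1 and 71.7% in replicate 2 lay within 200 nt of the stop codon. Of the factors that build cytosolic ribosomes, 13 of 24 had a peak in both replicates (54.2%, interval 32.8 to 74.4%), beside 30.9% of all protein-coding genes. The 13 included Polr1a and Polr1b of RNA polymerase I and its factor Ubtf. Transcripts of the 24 genes had a median of 2863.5 nt, and 35.6% of all genes from 2000 to under 4000 nt had a peak in both replicates. Among 18 other TOP mRNAs of the translation machinery, such as those of elongation factors, Eef1d alone had a peak. It had 1 in replicate 1 and 2 in replicate 2, and none of these overlapped a peak of the other replicate. The difference between these groups was not tested, and beside the cytosolic ribosomal protein genes they also differ in length and in the copies described next.

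**Figure D4:**
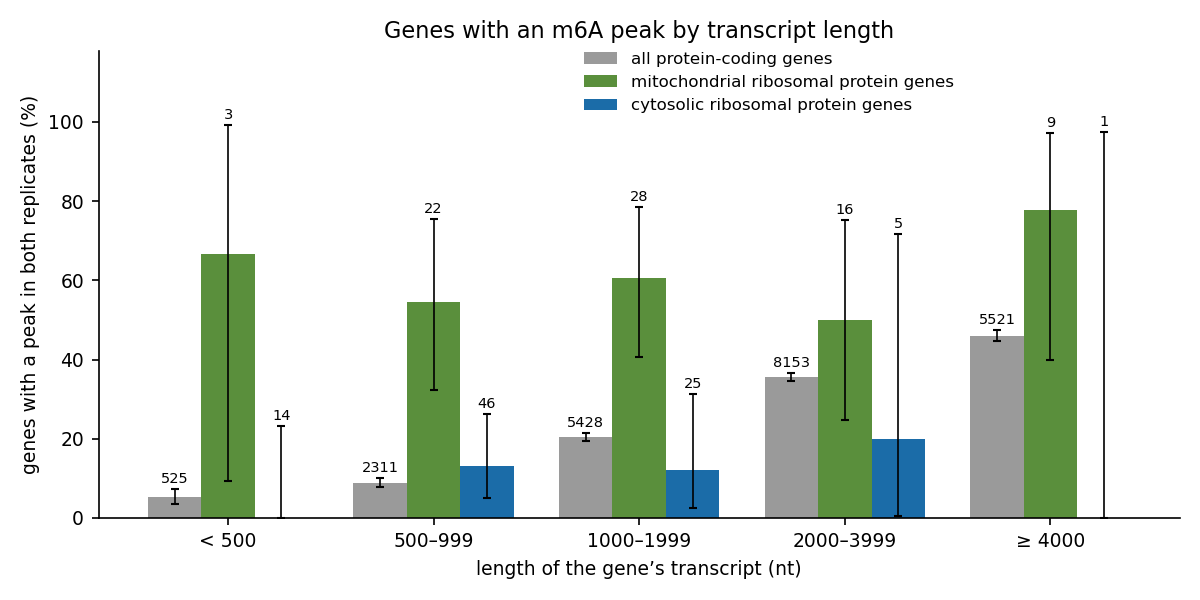
Percentage of genes with a summit in an exon in both replicates, by transcript length, for all protein-coding, mitochondrial ribosomal protein and cytosolic ribosomal protein genes; lines are exact 95% intervals and the numbers above them the genes in each class. Between 500 and 1000 nt the shares are 8.83% of all genes, 54.5% of mitochondrial and 13% of cytosolic ribosomal protein genes.

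Ribosomal protein genes have many processed pseudogenes, and much of the sequence of their mRNAs is found at more than 1 place in the genome. A median of 52.5% of each member's transcript, read in stretches of 50 bases, had an exact copy elsewhere in the genome, beside 1.16% for all protein-coding genes and 1.45% for mitochondrial ribosomal protein genes. For 50 of the 91 members at least 50% of the transcript had a copy. How reads that fit several places were treated is not given in the sources used here. The median was 47% for members with a peak and 53.6% for those without. Rpl13, with 86.6% of its transcript copied, had a peak of low fold enrichment (1.65 and 1.49) that was lost with −log10 q of at least 5. Copies of the sequence under the peaks were not analysed separately. Of protein-coding genes with at least 50% of their sequence copied, 10.7% had a peak in both replicates, and of the members in that class 4 of 50 (8.0%). From 10 to under 50% copied the shares were 22.2% of all genes and 6 of 32 members (18.8%), and from 1 to under 10% they were 30.2% and 0 of 7. Below 1% they were 37% and 0 of 2. Over these classes the shares of all genes would give 15.3 members with a peak, and 10 had one. The part of these copies in the low number of peaks was not tested.

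**Figure D5:**
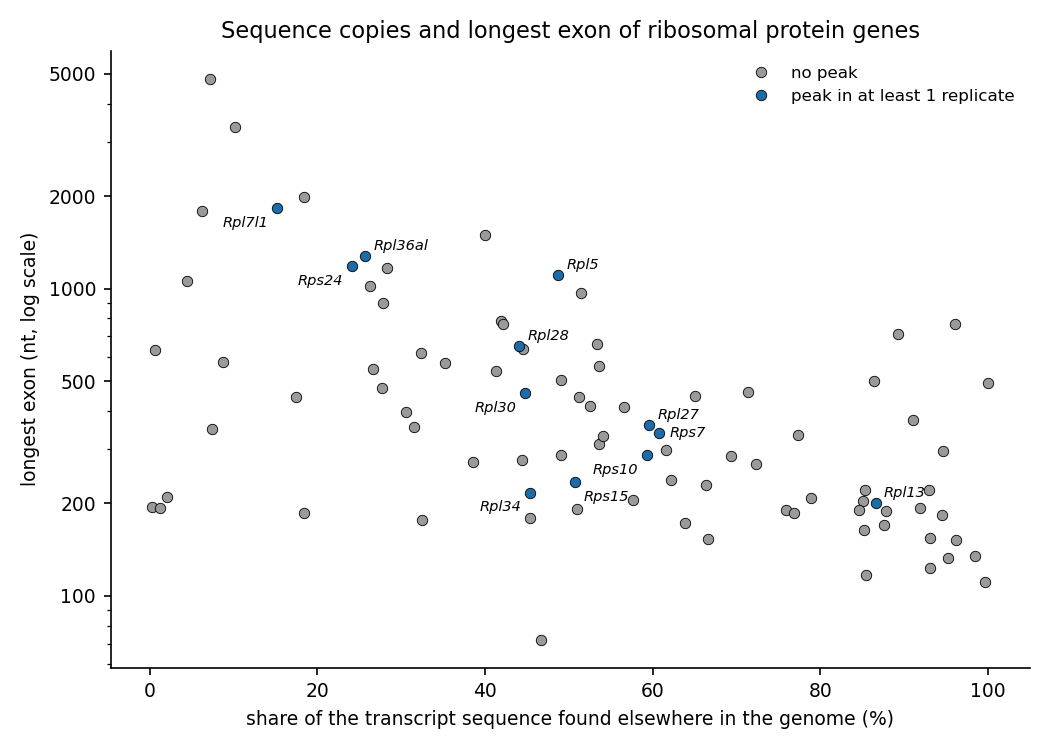
Share of each ribosomal protein transcript found elsewhere in the genome against the length of its longest exon (log scale), for members with a peak in at least 1 replicate (blue, named) and with none (grey). Genes with a peak are spread from 15.1% (Rpl7l1) to 86.6% (Rpl13) on the horizontal axis, among genes without one.

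A few of the annotated pseudogenes themselves had a peak, and the share over all pseudogenes was not counted for comparison. Of 301 pseudogenes with an Rpl or Rps symbol, 2 had a summit in both replicates, Rpl36a-ps3 with a fold enrichment of 2.25 (170 IP reads over 86) and 2.06 (166 over 76) and Rps4l with 3.77 (95 over 28) and 4.31 (86 over 18.2), and 7 had one in at least 1 replicate. Rpl36a-ps3 is a copy of Rpl36a, which itself had a peak near its start.

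Most Diamond-Blackfan anaemia genes had no peak. Of 20 such genes, Rpl27, Rps7 and Rps24 had a summit in an exon in both replicates, Rpl5 in replicate 1 and Rps10 in replicate 2, and the other 15 had none, among them Rps19, the gene most often affected in that disease, and Rpl11. The share in both replicates was 15% (interval 3.21 to 37.9%), beside 11% for all members.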

How the data were processed

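Reads were aligned by the authors to GRCm38 with HISAT2, and peaks were called by them in each replicate separately with MACS2 version 2.1.1.20160309 (versions from the submitters' processing notes) without its fragment model. Significance threshold, control library and the treatment of reads that fit several places are not given in the sources used here. The deposited lists hold, as computed by MACS2 for the authors, the fold enrichment at the summit, its p and q (each as −log10), a score derived from q, and the offset of the summit.

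Summits were assigned to exons of the GENCODE M21 basic transcripts on GRCm38. Placement used the transcript holding the summit, and gene features the one with the longest coding sequence. IP and background reads were solved from fold enrichment and p-value, with 100% of peaks in each replicate matched within 0.001. Background reads are the local level that MACS2 set against the IP, not a count of control reads at the summit, and need not be whole. The files give no library totals. Copies of transcript sequence were exact matches of 50 bases on either strand at another place on the assembled chromosomes. The search for copies was tested on simulated data, and so was the solving of IP reads, for unscaled peaks alone. The estimated scales and the background reads were not tested in that way. Python 3.11.15, numpy 2.4.6, pandas 2.3.3, scipy 1.17.1 and numba 0.67.0 were used. Genes are named where a summit lay in an exon in both replicates, then in 1. Members and lists were chosen with earlier results of these data known. Alternatives were other rules for assigning peaks, stricter peaks, other windows and match lengths, and each replicate alone.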

Additional observations from a re-analysis of the deposited data

How the results depend on the processing

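The counts of 10 ribosomal protein genes in both replicates and 12 in either were 12 and 14 with any overlap of a peak with an exon (adding Rpl8, Rps10 and Rpl23a) or with the comprehensive transcript set (adding Rpl36a and Rps18), 8 and 10 with −log10 q of at least 5, 8 and 9 without summits shared by several genes, 8 and 10 without paralogues and pseudogene-like symbols, and 11 in each replicate alone. With peaks of at least 4-fold they fell to 0 in both and 4 in either, and 0% of those peaks overlapped one of at least 4-fold in the other replicate. In each of these 4 genes the overlapping peak of the other replicate was below the cut (Rpl34 3.95, Rps24 3.79, Rpl30 3.88, Rpl27 3.42). Without the cut, 91.7% of members' peaks overlapped one of the other replicate, as a mean of both replicates. Over all protein-coding exons the shares were 85.1% and 87.3%. The background of 30.9% of protein-coding genes was 32.6% with any overlap, 31.6% with the comprehensive set, 28.9% with −log10 q of at least 5, 16.9% with 4-fold, 29.1% without shared summits, and 33.5% to 34.5% in 1 replicate alone. Averaged over replicates, 4.17% of members' summits were near the stop codon and 12.9% within 400 nt, and GGAC was near 51.9%, with 30.7% within 25 nt and 69.3% within 100 nt. The median fold enrichment of 3.14 became 3.49 with −log10 q of at least 5. The 52.5% of transcript sequence found elsewhere was 60.8% for matches of 30 bases and 40.1% for 100 bases, and, in alternatives chosen after seeing the data, 62.8% for the shortest transcript of the same coding length and 88.4% for coding sequence alone. The cause of these shifts was not tested beyond what each setting changes. No paired analysis was possible because the numbers shared by IP and input samples join groups of which the inputs have no file analysed here. A gene without a peak may lack the mark, the reads to show it, or an IP signal far enough above its background to be called. Which of these holds was not tested.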
